A study of Mus musculus with 8 samples.

Results

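The genes described here are the ligands, receptors and SMAD proteins of the TGF-β and bone morphogenetic protein (BMP) superfamily. They were chosen by symbol: every gene of the count table named Bmp, Gdf, Tgfb, Tgfbr, Inhb or Smad with a number or subunit letter, and every gene whose symbol begins with Acvr or Bmpr. The rule took 48 of 55536 genes. No measured value entered it, but the genes were chosen with earlier results of these data known. They comprised 27 ligand genes, the protease gene Bmp1, 12 receptor genes and 8 SMAD genes.

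The 8 libraries of polyadenylated RNA came from MIN6, a mouse insulin-producing β-cell line labelled wild type, collected 48 h after transfection with Lipofectamine 3000. The 4 control libraries are from cells given the empty vector pcDNA 3, and the 4 libraries called Klf4 libraries here are from cells given pGloMyc-Klf4, a plasmid for the transcription factor Klf4. The vector names differ, so backbone and Klf4 cannot be told apart. Batch 1 held replicates 1 and 2 of both groups, and batch 2 held the others. The share of cells that took up plasmid is not given in the labels. In bulk RNA, fewer cells that express a gene and less RNA per cell cannot be told apart.

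Ligands of this superfamily are secreted as dimers, many of them inside a propeptide that keeps them latent. A ligand brings a type II receptor, whose kinase is always active, together with a type I receptor, which it phosphorylates. The type I receptor then phosphorylates receptor-regulated SMADs, which bind Smad4 and enter the nucleus. Smad2 and Smad3 serve the TGF-β and activin receptors, Smad1, Smad5 and Smad9 serve the BMP receptors, and Smad6 and Smad7 inhibit the pathway. In islets, activins and related ligands are known for effects on endocrine differentiation and insulin secretion.

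Total counts were 47017647 to 49504167 in control and 45417853 to 52731176 in Klf4 libraries. Klf4 itself stood at 36.1 to 42.8 CPM (counts per 1000000, with library sizes scaled by TMM factors) in control libraries and at 4532 to 5853 CPM in Klf4 libraries, a log2 fold change of 6.97. The 11 β-cell markers listed summed to 31811 to 39828 CPM in control and 29840 to 39889 CPM in Klf4 libraries. In edgeR 6 of the 11 were lower (23.3% of all genes with a mean of 5 CPM or more) and 0 higher. The 6 were G6pc2, Iapp, Mafa, Neurod1, Pdx1 and Slc30a8, with log2 fold changes of -0.22 to -0.07. Of 8 mesenchymal markers, 4 of the 5 tested were higher (21.1% of all genes). Of these 4 (Col1a1, Dcn, Pdgfra and Thy1), Dcn and Pdgfra were tested only because of their Klf4 counts. Among all genes tested for that reason 71.3% were called higher. The sum of the 8 moved with the plasmid, from 4.41 to 5.66 CPM in control to 24.0 to 30.8 CPM in Klf4 libraries. Most of this sum was Dcn, at 0.0461 CPM in control and 17.6 CPM in Klf4 libraries, while Col1a2 was at 1.34 and 1.42 CPM in the same order, and Col3a1 and Lum had 3 or fewer counts in every library. The part of this movement in the results below was not tested.

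The Klf4 libraries held more RNA of many superfamily ligands. Of the 16 ligand genes tested, 10 were higher (62.5%, against 21.1% of all genes), 8 of them tested only because of their Klf4 counts. Lower was 1 (6.25%, against 15.5% of all genes). Of the 19 other genes tested (receptors, SMADs and Bmp1), 7 were not called. Among these 19, 4 were higher (21.1%, against 21.1% of all genes), 2 of them tested only because of their Klf4 counts. Lower were 8 (42.1%, against 15.5% of all genes and 23.3% of those with a mean of 5 CPM or more). All tested receptor and SMAD genes except Acvrl1 and Tgfbr3 had log2 fold changes between -0.22 and 0.22. Of the 48 genes, 35 had enough counts to be tested, and 23 of these (65.7%) passed an adjusted p of 0.05 in edgeR's quasi-likelihood test, fitted with a batch term, against 36.6% of all 18266 genes tested. Higher were 14 (40%; 21.1% of all genes) and lower were 9 (25.7%; 15.5% of all genes). A rise of at least 0.3 on the log2 scale was seen in 12 of the 35 (14.9% of all genes). No fall of that size passed the threshold (1.7% of all genes), and none did in edgeR at an unadjusted p under 0.05 or in the DESeq2 Wald test. In 13 of the 35 the lowest Klf4 library was above the highest control library (17.2% of all genes), and in 6 the highest was below the lowest control library (8.93% of all genes).

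These counts are a description and not support for a property of the family. Of the 35 genes, 10 passed the filter on low counts through the Klf4 libraries alone (7.08% of all genes tested), since their control counts fell short of it. The filter itself thus favoured higher Klf4 values among these 10, and 4 of the 14 higher genes were free of this condition. Among all genes that passed in the same way, 71.3% were called higher. Changes also split by abundance, but for genes of low abundance this is not separate from the filter. The 10 genes that passed it through the Klf4 libraries alone all had a mean under 5 CPM, and all were higher. Of 16 tested genes with a mean under 5 CPM over all libraries, 11 were higher (68.8%; 23.3% of all genes of that abundance) and none was lower (2.82%), nor was any lower at an unadjusted p under 0.05 in edgeR or in DESeq2. Of 19 with 5 CPM or more, 3 were higher (15.8%; 19.7% of such genes) and 9 were lower (47.4%; 23.3% of such genes). The median log2 fold change was 0.09 over the 35 and -0.01 over all genes tested. Of the 27 ligand genes, 10 to 11 had at least 10 counts in a control library, and 16 to 19 had as many in a Klf4 library.

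**Figure D1:**
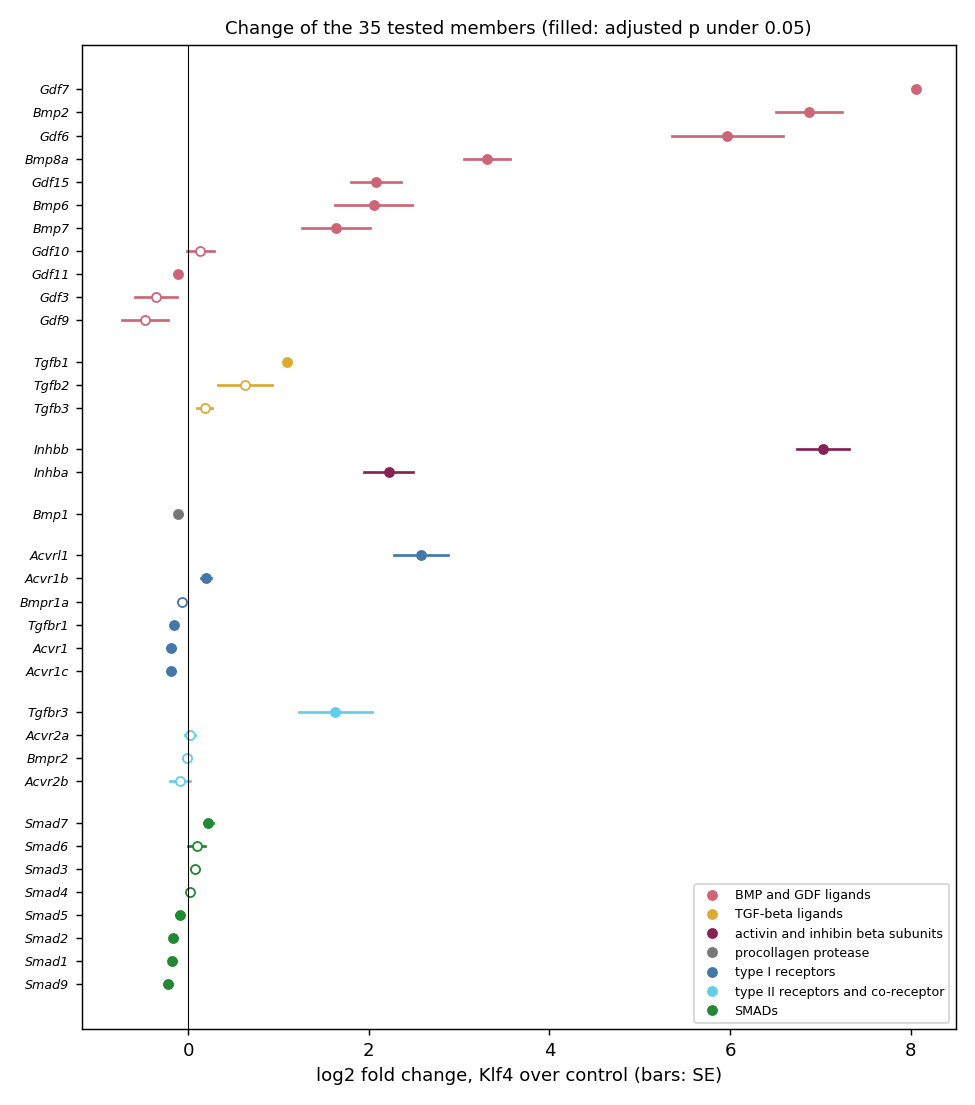
Log2 fold change of each tested gene, Klf4 over control, grouped by role, with bars of 1 SE on each side and filled points past the threshold. Among ligands with control counts the change reaches 7.03 (Inhbb), while all receptor and SMAD genes except Acvrl1 and Tgfbr3 lie between -0.22 and 0.22. Gdf7, with no control counts, is drawn at a fitted 8.05 that depends on the prior count, and has no bar.

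Inhba and Inhbb, the activin subunit genes tested, rose, and both had passed the filter through their Klf4 counts alone. Inhbb encodes the βB subunit of activin B and inhibin B. It had 0, 5, 4 and 0 counts in control replicates 1 to 4 and 238, 265, 385 and 414 counts in Klf4 replicates 1 to 4. It thus went from near the detection limit to a clear signal in every Klf4 library. Its mean level went from 0.0460 ± 0.0538 CPM to 6.41 ± 1.47 CPM (SD, n = 4), and the ratio of the summed counts was 138.2 with an exact interval of 72.6 to 303 that covers counting error only. The log2 fold change was 7.03 (SE 0.29, edgeR adjusted p 4.79e-15). Inhba encodes the βA subunit of activin A. Control libraries held 17, 16, 11 and 9 of its counts and Klf4 libraries held 56, 58, 67 and 79, so that the groups did not overlap. The log2 fold change was 2.22 (SE 0.27, edgeR adjusted p 5.28e-07). The other subunit genes, Inhbc and Inhbe, had at most 6 counts in any library and were not tested.

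Among the BMP and GDF ligands 7 of the 11 tested genes rose (63.6%; 21.1% of all genes). Of the 7, all but Gdf15 had passed the filter through their Klf4 counts alone, and 3 had at most 4 counts in the control libraries together. Bmp2, an osteogenic BMP, went from 2, 0, 0 and 2 counts to 128, 103, 154 and 168 counts, in the order of replicates 1 to 4. The ratio of the sums was 132.1 (exact interval 51.3 to 486.6, counting error only), and the log2 fold change was 6.87 (SE 0.37, edgeR adjusted p 4.04e-13). Gdf7, a GDF known for its role in dorsal spinal cord patterning, was without a count in control and had 32, 26, 41 and 37 counts with Klf4. With a floor of 3 counts over the control group, its Klf4 level (0.669 ± 0.0908 CPM, SD, n = 4) was higher by at least 43.3-fold (edgeR adjusted p 4.17e-08). Gdf6, a close relative that acts in joint and eye development, went from 2, 0, 0 and 0 counts to 45, 27, 42 and 50 counts. Its ratio of sums was 78.4 (exact interval 21.4 to 652.5, counting error only), and the fitted log2 step was 5.97 (SE 0.62, edgeR adjusted p 2.03e-08).

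The other ligands that rose were already detected in control cells. Bmp8a had 17, 21, 6 and 13 counts in control and 128, 100, 191 and 191 counts in Klf4 libraries. This is a step of 3.31 on the log2 scale (SE 0.26, edgeR adjusted p 3.79e-10), with no overlap between groups. Its close paralog Bmp8b, with 1, 4, 0 and 2 counts in control and 2, 6, 3 and 11 with Klf4, was not tested, and reads shared by the pair could have been assigned to either or discarded. Gdf15, a stress-responsive cytokine, stood at 0.361, 0.534, 0.243 and 0.414 CPM in control and at 0.987, 1.37, 2.17 and 2.28 CPM in Klf4 libraries (log2 fold change 2.08, SE 0.27, edgeR adjusted p 1.7e-06). Batch 2 held the higher Klf4 libraries.

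Bmp6, an iron-regulating BMP in liver, rose from 2, 4, 11 and 5 counts to 27, 23, 26 and 20 counts (log2 fold change 2.06, SE 0.43, edgeR adjusted p 0.000454). Bmp7, known from kidney development, rose from 6, 11, 6 and 12 counts to 28, 26, 19 and 42 counts (log2 fold change 1.64, SE 0.37, edgeR adjusted p 0.00123). For both genes the lowest Klf4 library lay above the highest control library. An exon of Bmp6 overlaps an exon of Txndc5 on the other strand, and without a stated strand setting its counts are uncertain.

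Bmp4, a ventralising BMP of the embryo, did not have enough counts for the filter. It went from 1, 0, 0 and 0 counts to 19, 22, 9 and 45 counts. It overlaps Gm15217 on the other strand. Its ratio of sums was 90.8 (exact interval 15.9 to 3623, counting error only). In the fit without a filter its log2 fold change was 5.92 and passed the threshold in edgeR, where 4.02% of the genes outside the filtered set did. Bmp5 went the other way, with 2, 0, 0 and 5 counts in control and none in Klf4 libraries, too few to separate the groups. Bmp3, Bmp10, Bmp15 and Gdf1 had at most 1 count in any library, and Gdf2 and Gdf5 had 1 to 13 counts with overlapping groups. Gdf1 overlaps Cers1 on the same strand and Upf1 on the other, so its counts are uncertain.

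The most abundant ligand per length over all libraries was Gdf11, a relative of myostatin studied in pancreatic endocrine differentiation. It stood at 41.6, 40.9, 52.6 and 54.8 CPM in control and 38.4, 41.8, 45.9 and 48.4 CPM in Klf4 libraries. The groups overlapped, and values were higher in batch 2 in both. The log2 step of -0.12 (SE 0.04, edgeR adjusted p 0.0343) lost its call when any of 5 libraries was left out (control replicate 3 or 4, Klf4 replicate 1, 3 or 4), with log2 fold changes of -0.13 to -0.10, and with scaling factors from abundant genes. Gdf3, Gdf9 and Gdf10 did not pass the threshold, with log2 fold changes of -0.35, -0.48 and 0.13.

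Tgfb1, which encodes the main TGF-β isoform of most tissues, was the ligand with the largest rise in absolute level. It stood at 25.5, 28.8, 39.3 and 43.7 CPM in control and at 58.5, 58.5, 85.4 and 91.9 CPM in Klf4 libraries. Both groups were higher in batch 2, and the step was of the same size in each batch, 1.10 in batch 1 and 1.11 in batch 2 on the log2 scale. Over all libraries the log2 fold change was 1.10 (SE 0.04, edgeR adjusted p 2.53e-15). Per kilobase of exon the level went from 6.81 to 14.6 CPM, past that of Gdf11, which was 11.7 in control and 10.7 in Klf4 libraries. Tgfb3 and Tgfb2 did not pass the threshold, with log2 fold changes of 0.18 (SE 0.09) and 0.63 (SE 0.30). Each passed when 1 library was left out, Tgfb2 without Klf4 replicate 3 (0.85, edgeR adjusted p 0.0347) and Tgfb3 without control replicate 2 (0.23, edgeR adjusted p 0.0404).

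**Figure D2:**
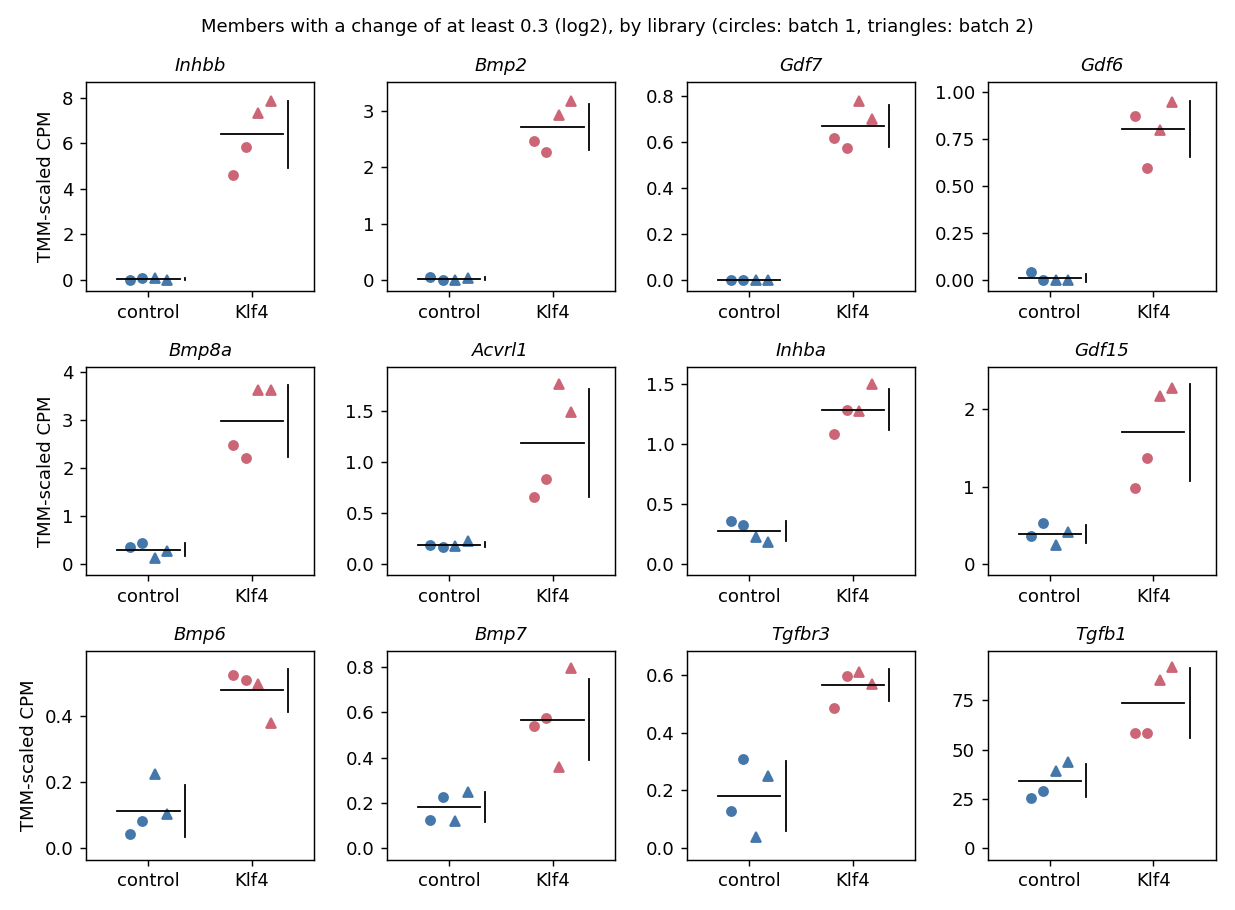
TMM-scaled CPM per library for the 12 genes whose change passed the threshold and reached 0.3 on the log2 scale, with the group mean (horizontal line) and 1 SD on each side (vertical line). In each panel the lowest Klf4 library lies above the highest control library, from Gdf7 at 0 CPM in control to Tgfb1 at 25.5 to 43.7 CPM.

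In GRCm38 coordinates, the ligand genes given library by library lie at chr1:119415465-119422248 (Inhbb), chr13:16011851-16031621 (Inhba), chr2:133552159-133562885 (Bmp2), chr12:8297918-8301954 (Gdf7), chr4:9844372-9862345 (Gdf6), chr4:123312645-123343252 (Bmp8a), chr8:70629393-70632456 (Gdf15), chr13:38345107-38500302 (Bmp6), chr2:172868012-172940321 (Bmp7), chr10:128882295-128891718 (Gdf11) and chr7:25687002-25705077 (Tgfb1). All are protein-coding genes in the annotation, and reads over their exons were counted.

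Promoter sequences are shown for 5 of the 7 ligands that rose and have a RefSeq window, 4 with a CACCC box and 1 without, chosen after their boxes were counted, since Klf4 binds GC-rich sites related to the CACCC box. The windows are the 250 bases before the RefSeq start site in GRCm38.p6, read 5′ to 3′ on the strand of the gene, with CACCC or its complement GGGTG in capitals. They lie at chr1:119422249-119422498 on the minus strand for Inhbb, chr12:8301955-8302204 on the minus strand for Gdf7, chr4:123343253-123343502 on the minus strand for Bmp8a, chr13:16011601-16011850 on the plus strand for Inhba and chr7:25686752-25687001 on the plus strand for Tgfb1.
Inhbb: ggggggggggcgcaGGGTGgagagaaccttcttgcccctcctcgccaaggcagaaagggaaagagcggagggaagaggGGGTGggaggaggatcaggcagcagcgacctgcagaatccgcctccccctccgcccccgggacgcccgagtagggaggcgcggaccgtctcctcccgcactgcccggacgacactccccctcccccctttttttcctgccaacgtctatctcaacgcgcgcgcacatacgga
Gdf7: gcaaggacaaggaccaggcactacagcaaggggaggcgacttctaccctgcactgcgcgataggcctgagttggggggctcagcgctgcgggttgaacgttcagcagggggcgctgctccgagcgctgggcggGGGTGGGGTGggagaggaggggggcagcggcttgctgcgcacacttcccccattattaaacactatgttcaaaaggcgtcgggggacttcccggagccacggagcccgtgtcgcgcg
Bmp8a: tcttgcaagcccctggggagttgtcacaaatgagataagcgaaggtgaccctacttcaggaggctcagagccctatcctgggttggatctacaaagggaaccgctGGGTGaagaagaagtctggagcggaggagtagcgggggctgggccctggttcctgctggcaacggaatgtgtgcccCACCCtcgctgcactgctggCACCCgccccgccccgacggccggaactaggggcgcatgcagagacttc
Inhba: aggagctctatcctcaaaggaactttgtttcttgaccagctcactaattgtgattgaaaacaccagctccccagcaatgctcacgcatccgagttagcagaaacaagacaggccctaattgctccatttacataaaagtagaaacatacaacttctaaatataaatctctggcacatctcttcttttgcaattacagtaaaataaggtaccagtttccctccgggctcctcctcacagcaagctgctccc
Tgfb1: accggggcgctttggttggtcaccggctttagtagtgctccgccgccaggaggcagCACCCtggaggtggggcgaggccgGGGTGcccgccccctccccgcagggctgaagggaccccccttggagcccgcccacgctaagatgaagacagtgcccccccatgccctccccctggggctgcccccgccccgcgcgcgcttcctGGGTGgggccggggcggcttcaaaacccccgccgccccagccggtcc
The Inhbb and Gdf7 windows each held 2 such boxes, and those of Bmp8a and Tgfb1 held 3 each. The Inhba window held none, as did that of Bmp6, and the 2 windows of Gdf15 held 1 and 3. The box is common: on either strand it was found in 52% of the 32851 promoter windows of this length. RefSeq windows, 42 in all, were matched for 34 of the 48 genes, and 26 of the 42 held the box. A box was present for 6 of the 8 higher genes with a window and for 17 of the 26 others. The longer motif GGGTGTGG, whose complement contains CACCC, was found on either strand in 4 of the 42 windows (3.2% of all windows). These belonged to 4 of the 34 genes, and none is printed here. Of the SMAD-binding motifs, GGCGCC was found in 6 of the 42 windows (9.59% of all windows), for 6 of the 34 genes. The palindrome GTCTAGAC was found in none (0.167% of all windows). A match is a run of letters and not a measured binding site.

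Most receptor genes were well above the detection limit in both groups. Among type I receptors, levels per kilobase of exon in control cells were in the order Bmpr1a (10.2 CPM), Tgfbr1 (9.11), Acvr1c (7.78), Acvr1 (5.26) and Acvr1b (4.14), with Acvrl1 (0.0449) and Bmpr1b (0.00952) far below. Bmpr1a, a BMP receptor, stood at 60.03, 63.0, 69.8 and 65.5 CPM in control and at 60.1, 59.8, 64.5 and 61.3 CPM in Klf4 libraries. The groups overlapped, and its log2 fold change of -0.07 (SE 0.04) did not pass the threshold except without control replicate 1 (-0.11, edgeR adjusted p 0.0355).

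Tgfbr1, the TGF-β type I receptor, fell by 0.16 on the log2 scale (SE 0.04, edgeR adjusted p 0.00263), with 58.7 to 60.4 CPM in control and 49.1 to 55.7 CPM in Klf4 libraries. Acvr1c, the receptor ALK7 that is known from islets and fat, fell by 0.19 (SE 0.04, edgeR adjusted p 0.000742), from 67.2 to 77.1 CPM in control to 59.6 to 69.0 CPM. Its groups overlapped, since control replicate 1 lay below Klf4 replicate 3. Acvr1 fell by 0.19 (SE 0.05, edgeR adjusted p 0.00276) without overlap. Acvr1b, the activin receptor ALK4, rose by 0.20 (SE 0.06, edgeR adjusted p 0.00549), also without overlap.

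Acvrl1, the receptor ALK1 of endothelial cells, was the 1 type I receptor gene with a large step. Its control counts fell short of the filter, which it passed through its Klf4 counts alone. It had 9, 8, 9 and 11 counts in control and 34, 38, 93 and 79 counts in Klf4 libraries (log2 fold change 2.58, SE 0.30, edgeR adjusted p 2.27e-07). Groups were apart, and the Klf4 libraries of batch 2 held more counts than those of batch 1. An exon on the other strand belongs to Gm16031, so the counts are uncertain. The 4 endothelial markers listed summed to 4.10 to 4.42 CPM in control and 5.01 to 5.26 CPM in Klf4 libraries. Most of this sum was Pecam1, at 3.97 and 4.34 CPM in the same order. Of the 3 tested, Pecam1 and Tek did not pass the threshold and 1, Cdh5, was higher (21.1% of all genes). Cdh5 had no control counts and passed the filter through its Klf4 counts alone. Kdr had 3 or fewer counts in every library. The part of these markers in the rise of Acvrl1 was not tested.

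None of the 3 type II receptor genes tested passed the threshold. Acvr2a, an activin receptor and the type II gene of highest control level per kilobase of exon (5.18 CPM, beside 2.71 for Bmpr2 and 1.16 for Acvr2b), stood at 27.9, 30.9, 29.7 and 29.4 CPM in control and 30.5, 29.4, 32.3 and 27.4 CPM in Klf4 libraries. Its log2 fold change was 0.02 (SE 0.05), and those of Bmpr2, a BMP type II receptor, and Acvr2b were -0.01 (SE 0.04) and -0.09 (SE 0.11). For these 3 genes the unadjusted p was also above 0.05 in edgeR, and DESeq2 called 0 of them. Tgfbr2, the type II receptor that TGF-β ligands bind, had 1, 0, 0 and 0 counts in control and 2, 2, 3 and 0 in Klf4 libraries. The counts were too few to tell the groups apart (ratio of sums 6.69, exact interval 0.859 to 301.5, counting error only). Tgfbr3, the co-receptor betaglycan, rose from 6, 15, 2 and 12 counts to 25, 27, 32 and 30 counts (log2 fold change 1.63, SE 0.40, edgeR adjusted p 0.00246). Tgfbr3 had passed the filter through its Klf4 counts alone, and it overlaps Gm43422 on the same strand. Exons of Bmpr1a, Acvr1c and Acvr2a overlap a gene on the other strand (Gm17110, Gm13544 and Orc4), so their counts are uncertain to that extent.

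Log2 fold changes of the 8 SMAD genes lay between -0.22 and 0.22. Per kilobase of exon, control levels were in the order Smad4 (17.7 CPM), Smad1 (11.9), Smad5 (9.86), Smad9 (9.31), Smad2 (5.86), Smad3 (5.39), Smad7 (4.66) and Smad6 (1.65). Smad4, the common partner and the SMAD of highest level per length, stood at 63.1, 64.1, 66.8 and 68.6 CPM in control and 66.2, 62.2, 70.5 and 66.9 CPM in Klf4 libraries, a step of 0.02 on the log2 scale (SE 0.03, edgeR adjusted p 0.746). The BMP-responsive SMADs were lower in every Klf4 library than in any control library. This also held for Smad2 of the other branch, for Acvr1 and Tgfbr1, and for 8.93% of all genes. Smad9 went from 45.7 to 53.6 CPM to a range of 41.4 to 45.03 CPM and fell by 0.22 (SE 0.04, edgeR adjusted p 0.000196). Smad1 went from 73.8 to 75.2 CPM to a range of 61.8 to 69.0 CPM and fell by 0.17 (SE 0.03, edgeR adjusted p 0.000299). Smad5 fell by 0.09 (SE 0.03, edgeR adjusted p 0.0319) and overlaps Gm27301 on the same strand. The call for Smad5 was lost without Klf4 replicate 2 or without control replicate 3, at -0.09 in both, and with scaling factors from abundant genes.

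Of the SMADs of the TGF-β and activin branch, Smad2 fell by 0.16 (SE 0.04, edgeR adjusted p 0.00153), from 50.9 to 52.7 CPM in control to 44.5 to 48.8 CPM. Smad3 did not pass the threshold (log2 fold change 0.08, SE 0.04). Of the inhibitory SMADs, Smad7 rose by 0.22 (SE 0.05, edgeR adjusted p 0.00107), with overlapping groups: 19.4, 20.1, 22.0 and 22.7 CPM in control and 22.5, 21.3, 28.3 and 26.6 CPM with Klf4. Smad6 stood at 0.09 (SE 0.09, edgeR adjusted p 0.479). The protease gene Bmp1, which cleaves procollagens and carries the BMP name without being a ligand of this kind, stood at 294.4 to 329.6 CPM in control and 275.7 to 313.4 CPM. The call, at a log2 step of -0.11 (SE 0.04, edgeR adjusted p 0.0239), was lost when control replicate 3 or 4 or Klf4 replicate 3 or 4 was left out (-0.11 to -0.09), and with scaling factors from abundant genes.

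In the same build, chr14:34410734-34503341 (Bmpr1a), chr15:101128522-101145336 (Acvrl1), chr2:48814109-48903269 (Acvr2a) and chr5:107106570-107289629 (Tgfbr3) are the positions of the receptor genes given library by library.

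**Figure D3:**
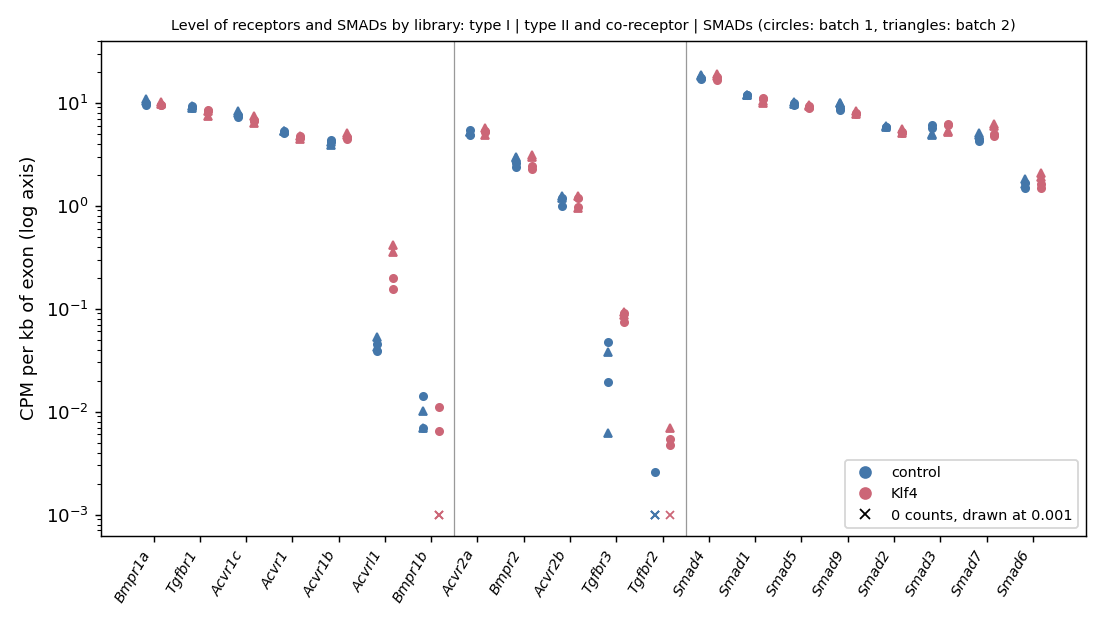
Level per kilobase of exon (log axis) of the 12 receptor and 8 SMAD genes in each library, control beside Klf4, with libraries at 0 counts drawn as crosses at 0.001. Acvrl1, Bmpr1b, Tgfbr3 and Tgfbr2 lie below 1 CPM per kilobase in every library, and the other genes near 1 or above it, up to Smad4 at 17.7 in control and 17.9 with Klf4.

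The batches were compared because each held 2 libraries of each group. For none of the 35 genes did the change differ between batches at an adjusted p under 0.05 (edgeR interaction test; 0.766% of all genes), and DESeq2 also gave 0. Without adjustment, 4 genes had a p under 0.05 in edgeR (Bmp1, Bmp8a, Gdf15 and Smad9; 10.6% of all genes) and 3 in DESeq2. The log2 fold changes in batches 1 and 2 were 2.55 and 4.21 for Bmp8a, 1.38 and 2.76 for Gdf15, -0.14 and -0.30 for Smad9, and -0.01 and -0.20 for Bmp1. Without control replicate 1, the difference for Bmp1 passed the threshold (-0.27, edgeR adjusted p 0.00655). All 12 genes with a rise of at least 0.3 were higher in both batches. This follows from their groups not overlapping over the 8 libraries, and is not a separate result. With the libraries of batch 1 alone 16 of the genes were called, Bmp4 among them, and 4526 over all genes. With those of batch 2 alone 20 were called, and 5528 over all genes. Batch 1 alone lacked the calls of Tgfbr3 (1.28), Acvr1, Acvr1b, Bmp1, Gdf11, Smad5, Smad7 and Tgfbr1, and batch 2 alone those of Bmp6 (1.41), Smad2 and Smad5, all with the sign they had over both batches.

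**Figure D4:**
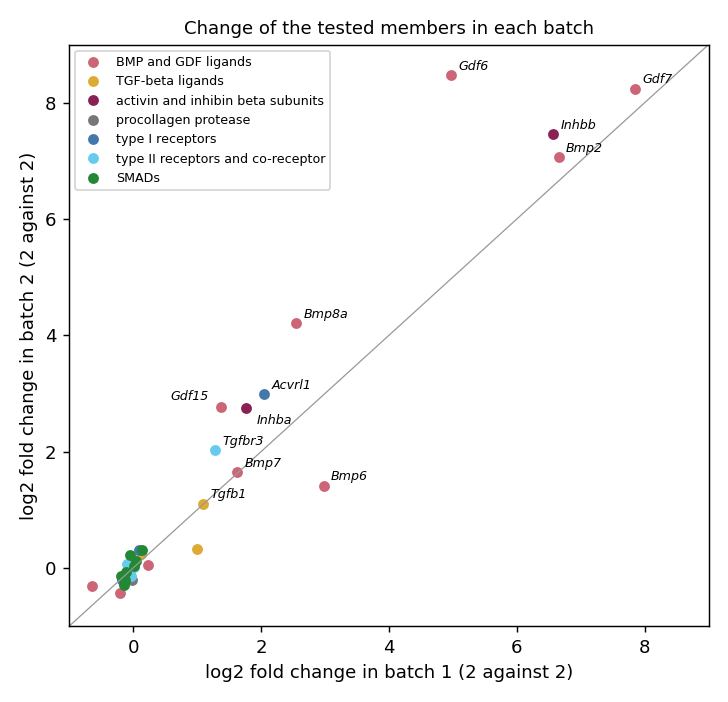
Log2 fold change of each tested gene in batch 1 (x axis) and batch 2 (y axis), 2 libraries against 2 in each, with the line of equal change. The genes of large change lie in the upper right, with Gdf6 (4.97 and a fitted 8.48, without control counts in batch 2) and Bmp8a above the line and Bmp6 (2.98 and 1.41) below it.

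Other genes of the pathway were taken from lists of antagonists, latency proteins, co-receptors, intracellular regulators, targets and further ligands. These lists were also chosen with earlier results of the data known. Of 91 symbols listed 89 matched the count table, 73 were tested, and 43 changed (58.9%; 36.6% of all genes). Higher were 34 (46.6%; 21.1% of all genes) and lower were 9 (12.3%; 15.5% of all genes). The median log2 fold change of the 73 was 0.10, against -0.01 over all genes tested. Of the 73, 13 passed the filter through the Klf4 libraries alone (7.08% of all genes tested). Exons of Fst, Rgma, Fbn1 and 12 more of the 43 overlap a gene on the other strand, so their counts are uncertain to that extent. As for the ligands, the largest steps were in genes near the detection limit in control cells.

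Some genes of secreted antagonists rose. Of 15 tested, 6 were higher (40%; 21.1% of all genes) and 1 was lower (6.67%; 15.5% of all genes), with a median of 0.08. Of the 6, 3 (Fst, Nog and Nbl1) had passed the filter through their Klf4 counts alone. Fst, which encodes the activin-binding follistatin, had no counts in control and 19, 14, 23 and 18 in Klf4 libraries, at least 23.6-fold higher against a floor of 3 counts over the control group (edgeR adjusted p 1.74e-06). The BMP antagonist gene Nog had 0, 0, 0 and 1 counts in control and 17, 10, 26 and 16 in Klf4 libraries (log2 fold change 5.47, SE 0.82, edgeR adjusted p 2.78e-06). In both genes each Klf4 library held at least 10 counts. Nbl1, another BMP antagonist of the DAN family, rose from 15, 9, 6 and 6 counts to 296, 244, 386 and 416 counts (log2 fold change 5.12, SE 0.20, edgeR adjusted p 2.58e-15). Sost, Fstl3 and Bmper rose by 2.42, 1.56 and 0.78. Dand5 fell by 0.18 (edgeR adjusted p 0.0488), a call lost in 14 of 19 alternative settings. Among these were DESeq2, limma-voom, no filter, the replicate block, no batch term, scaling factors from abundant genes and each batch alone. It was also lost when control replicate 2 or 4 or Klf4 replicate 1, 2 or 4 was left out (-0.20 to -0.16). Among the antagonists that did not pass the threshold were Chrd (0.06) and Grem1 (-0.06).

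Of 13 latency and activation genes tested, 8 were higher (61.5%; 21.1% of all genes) and 2 lower (15.4%; 15.5% of all genes), with a median of 0.62. The filter had passed 4 of the 13 through their Klf4 counts alone. Ltbp1, a latent TGF-β binding protein, had 0, 2, 5 and 0 counts in control and 49, 32, 52 and 105 in Klf4 libraries (log2 fold change 4.92, SE 0.51, edgeR adjusted p 3.87e-08). Lrrc32, which encodes the TGF-β docking protein GARP, rose from 4, 0, 1 and 4 counts to 23, 26, 38 and 70 counts (3.96, SE 0.51, edgeR adjusted p 9.45e-07). Fbn1, a microfibril gene, rose from 7, 8, 8 and 1 counts to 55, 56, 97 and 105 counts (3.58, SE 0.34, edgeR adjusted p 1.3e-08). In these 3 genes no Klf4 library was as low as any control library. Fbn2, Ltbp2, Thbs1, Ltbp4 and Itgb5 rose by 3.27, 1.02, 0.88, 0.62 and 0.23. Itgav fell by 0.16 and Ltbp3 fell by 0.10, the latter lost without control replicate 4 (-0.09).

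Of 5 co-receptors and further receptors tested, 3 were higher (60%; 21.1% of all genes). The filter had passed 2 of the 5 through their Klf4 counts alone (7.08% of all genes tested). Rgma, a BMP co-receptor, rose from 7, 12, 5 and 7 counts to 131, 139, 215 and 244 counts (log2 fold change 4.44, SE 0.24, edgeR adjusted p 6.88e-13), with no overlap between groups. Amhr2 and Eng rose by 1.20 and 0.95. The call for Amhr2 was lost when control replicate 3 or 4 or Klf4 replicate 3 or 4 was left out (0.89 to 1.13). Of 3 further ligand genes tested, 1 was higher (33.3%, against 21.1% of all genes). This was Lefty1, which rose by 0.34. The call for Lefty1 was lost when control replicate 1 or 4 or Klf4 replicate 1 or 4 was left out (0.26 to 0.30).

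Of 20 intracellular regulators 6 were higher (30%; 21.1% of all genes) and 4 lower (20%; 15.5% of all genes), shares near the background, with a median of -0.02. Apart from the repressor gene Tgif2, which rose by 2.64, the changes were at most 0.30 in size. The filter had passed Tgif2 through its Klf4 counts alone. The SMAD co-repressor genes Skil and Ski rose by 0.30 and 0.27, the ubiquitin ligase genes Nedd4l and Smurf1 by 0.28 and 0.22, and Lemd3 by 0.21. Zfyve16, Usp11, Hipk2 and Fkbp1a fell by 0.26, 0.17, 0.15 and 0.09. The call for Hipk2 was lost without Klf4 replicate 1 (-0.13), and that for Fkbp1a without control replicate 4 or Klf4 replicate 3 (-0.08 in both).

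Of 18 genes tested that are known as transcriptional targets of the pathway, 11 were higher (61.1%; 21.1% of all genes) and 2 lower (11.1%; 15.5% of all genes), with a median of 0.37. The filter had passed 3 of the 18 through their Klf4 counts alone. Dlx5, an osteogenic homeobox gene, had no counts in control and 13, 24, 33 and 33 in Klf4 libraries, at least 32.8-fold higher against the same floor (edgeR adjusted p 5.34e-07). Tgfbi, a TGF-β-induced matrix gene, rose from 0, 2, 0 and 0 counts to 66, 59, 79 and 85 counts (log2 fold change 6.79, SE 0.51, edgeR adjusted p 1.25e-10). Timp1, a protease inhibitor gene, rose from 12, 24, 16 and 12 counts to 586, 480, 931 and 991 counts (5.44, SE 0.15, edgeR adjusted p 6.02e-18). The groups were apart in all 3. Smaller rises were those of Tagln (2.29), Snai1 (1.43), Col1a1 (1.07), Ltbp2 (1.02), Id4 (0.88), Junb (0.52), Id1 (0.21) and Atoh8 (0.18). Col1a1 also belongs to the mesenchymal markers whose sum was higher in the Klf4 libraries, and the part of that sum in these rises was not tested.

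The more abundant targets did not move in 1 direction. Id1, a standard readout of BMP signalling, averaged 91.4 ± 6.72 CPM in control and 106.6 ± 14.8 CPM with Klf4 (SD, n = 4), with overlapping groups and log2 fold changes of 0.08 in batch 1, where it did not pass the threshold, and 0.35 in batch 2, a difference between batches that did not pass (edgeR adjusted p 0.104). Id2 fell by 0.20 and Msx1 by 0.15. Id3, a further BMP target, had a log2 fold change of -0.01 and did not pass the threshold. The call for Atoh8 was lost when control replicate 3 or 4 or Klf4 replicate 1 or 4 was left out (0.12 to 0.16).

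**Figure D5:**
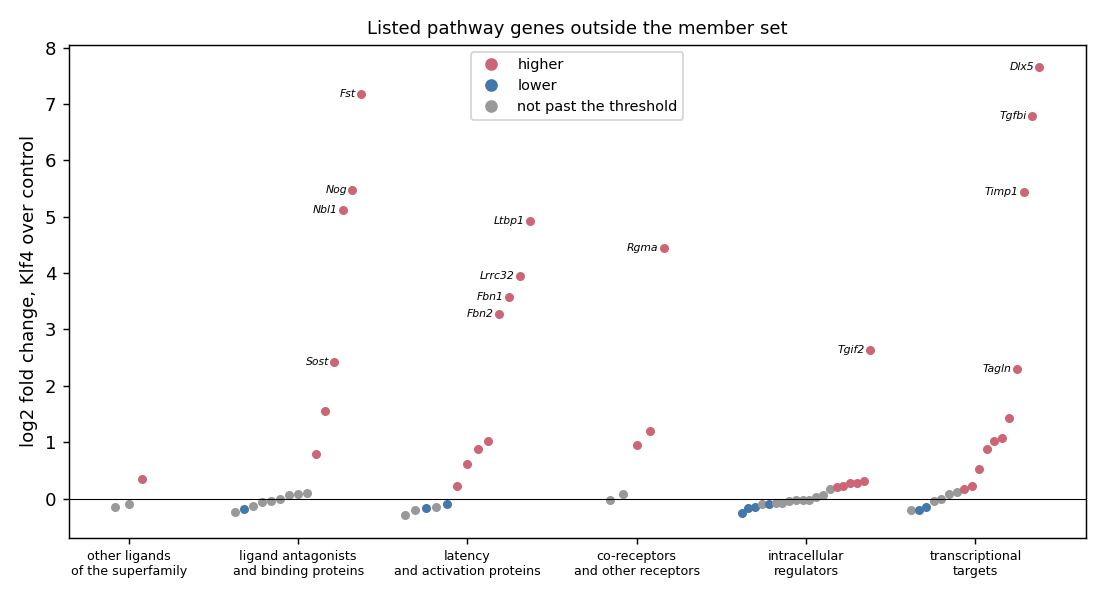
Log2 fold change of the listed pathway genes that were tested, 1 column of points per list, with genes past the threshold coloured by direction and those that rose by 2 or more named. Points above 2 lie in 5 of the 6 lists, and the lowest point past the threshold is Zfyve16 at -0.26.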

How the data were processed

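RNA of 8 MIN6 libraries, 4 per plasmid, was compared from whole-number read counts per gene as the authors deposited them, 1 column per library, neither normalised nor pooled. The submitters' processing notes list FastQC, STAR, featureCounts, edgeR and the mm10 build, and the deposited name mentions cutadapt trimming. The strand setting and annotation are not given in the sources used here. All 55536 identifier and symbol pairs were those of GENCODE M21, which supplied coordinates, exonic lengths and overlaps. The genes and lists were chosen with earlier results of these data known.

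Counts were fitted in edgeR 4.0.16 (R 4.3.3, limma 3.58.1) with terms for batch and plasmid, as the series' own description names edgeR with batch correction. filterByExpr, with a minimum count of 10, kept 18266 genes and removed 37270. TMM factors were 0.996 to 1.01. P-values were adjusted by Benjamini-Hochberg over all genes tested, and 0.05 was the threshold. Intervals are exact at 95% and cover counting error only. No label says that the libraries came from separate cultures, so p-values measure the spread between these libraries, which may be technical. Genes given library by library were those past the threshold with a change of at least 0.3 (log2), and the gene of highest CPM per kilobase in each role. Listed pathway genes past the threshold were named, the 10 of largest change in full. No pair of libraries of a group agreed within sampling noise (chi-square per degree of freedom 4.23 to 23.3), so all 8 were kept. Deviations from group means, over 10485 genes, correlated at 0.48 to 0.64 between same-numbered libraries of the 2 groups, at 0.49 to 0.59 between other libraries of the same batch and at -0.66 to -0.47 between batches. The numbers in the sample titles are the source of this pairing. The procedure was tested on simulated data of 18266 genes. Of 50 genes raised by 0.5 (log2) 36 were called and of 50 lowered by it 34, and at a change of 1 these were 44 and 39. Far fewer genes were changed there than were called in the data, with equal numbers raised and lowered. Changes under 0.5 were not simulated, so the simulation does not cover the smaller calls reported here. Alternatives included DESeq2 1.42.0, limma-voom, other scalings, filters and the omission of each library. Figures were drawn with Python 3.11.15.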

Additional observations from a re-analysis of the deposited data

Results flagged for a closer look

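Each group's highest and lowest library was compared with the other 3 of the group, 72 times over total counts and the tested genes, and 4 values stood apart, where chance gives about 3.6. Klf4 replicate 2 was the shallowest library of its group, with 45417853 counts against 51891997 to 52731176. The same library had 65.96 CPM of Smad5, where the others had 69.1 to 69.7 CPM, and without it the call for Smad5 was lost (log2 fold change -0.09, edgeR adjusted p 0.0757). Control replicate 3 had 52.7 CPM of Smad2, where the rest of the group had 50.9 to 51.2 CPM. Control replicate 1 had 0.0425 CPM of Gdf6, which is 2 counts, where the other control libraries had 0.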

How the results depend on the processing

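Of the 23 changed genes, all 23 stayed called with DESeq2, limma-voom, RLE size factors, upper-quartile factors and the replicate block, which moved the count over all genes from 6684 to 6284 and changed no call among the 35. A filter at 1 CPM in 4 libraries tested 26 of the genes and called 14. Without the batch term 4116 genes changed in all, and 19 of the 35. Scaling factors from abundant genes (average log2 CPM 6 or more) gave 15 higher and 6 lower of the 35, and 72.8% of all calls were then higher, against 57.7% with TMM. Leaving out each library gave 21 to 25 changed genes of the family, 5889 to 7074 over all genes and 39 to 46 of the listed pathway genes. The number whose change differed between batches was 0 to 1 over these omissions and 1 with no filter (Bmp1). Signs that turned belonged to genes that did not pass the threshold in either fit: Bmpr2 (0.021 with factors from abundant genes, 0.063 in batch 2) and Smad6 (-0.041 in batch 1), and, over omitted libraries, Acvr2a (-0.040 to 0.064), Bmpr2 (-0.054 to 0.014), Gdf10 (-0.0052 to 0.21) and Smad4 (-0.011 to 0.028). The causes were not tested. At this depth, folds of genes with fewer than 10 control counts are known only within wide counting intervals.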
